A study of Oryza sativa with 12 samples.

Results

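The effect of carrying both panicle-length segments at once was examined by comparing RNA of young panicles from NIL-Prl5ST-1 + Pbl6ST-1 with that of Koshihikari. The comparison was set by genotype label and used 6 of the 12 libraries of the series, 3 of each line. Koshihikari is the japonica cultivar that served as recurrent parent and carries its own alleles at both loci. NIL-Prl5ST-1 + Pbl6ST-1, called the double line below, is a near-isogenic line, that is, Koshihikari in which a segment of chromosome 5 holding Prl5 (GA20ox4) and a segment of chromosome 6 holding Pbl6 (APO1) come from the cultivar ST-1. The lines were grown in a paddy field and were bred by repeated backcrosses of the hybrid to Koshihikari with selection by markers, so other ST-1 sequence linked to each locus, or left elsewhere, may be carried along. The remaining 6 libraries came from the lines with only 1 segment, NIL-Prl5ST-1 and NIL-Pbl6ST-1. All 12 libraries were made from panicles at the 2 mm stage, and the study's methods state biological replication for its experiments in general. The labels do not say whether the 3 libraries of a line came from separate plants or pools, so the p-values measure the spread between these libraries.

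The rice panicle is built by branch meristems that first keep producing branches and then turn into spikelet meristems. GA 20-oxidases catalyse late steps of gibberellin synthesis and thereby promote stem and rachis elongation, whereas APO1 encodes an F-box protein that delays the change of meristems to spikelets.

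Counts per library totalled between 18851311 and 26873997 over the 6 libraries, and values are given as counts divided by the library total in units of 1e+06 after TMM scaling (cpm). Of 40722 transcripts in the table, 31643 transcripts of 25551 loci had enough counts to be tested. Transcripts of 1 locus often share reads and are not independent. Within each line, every pair of libraries was further apart than counting error allows, and Koshihikari replicate 2 stood furthest from the other Koshihikari libraries (second principal component at -24.2, against 11.4 and 22.4). In bulk panicles, fewer cells of a type and less RNA per cell cannot be told apart.

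Neither introgressed gene itself passed the test. The Prl5 transcript (Os05t0421900-00, on chromosome 5) was at 2.49, 2.73 and 2.18 cpm in Koshihikari and 4.78, 3.97 and 2.91 cpm in the double line. The double line was higher in each library, without overlap, yet the spread was wide (log2 fold change 0.65, standard error 0.217, adjusted p = 0.183 by the quasi-likelihood F-test of edgeR, p-values being adjusted after Benjamini and Hochberg over all transcripts). The single lines were at 2.86 ± 0.143 cpm in NIL-Prl5ST-1 and 3.28 ± 0.517 cpm in NIL-Pbl6ST-1, which lacks the Prl5 segment (SD, n = 3). Neither passed the same test against Koshihikari (adjusted p = 0.489 and 0.181). The Pbl6 transcript (Os06t0665400-01, on chromosome 6) was at 2.23, 1.77 and 1.07 cpm in Koshihikari and 1.71, 1.21 and 0.889 cpm in the double line, and the ranges of the lines overlapped (log2 fold change -0.41, standard error 0.325, adjusted p = 0.627). Both transcripts lay at a few cpm, and whether this low level kept them from passing was not tested.

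Across all transcripts, 685 of 31643 (2.16%) were called at an adjusted p below 0.05, 273 higher (0.863%) and 412 lower (1.3%) in the double line. They belonged to 568 loci. The lines did not overlap in 684 of the 685, against 20.2% of all transcripts tested. A call with 3 libraries a side nearly requires this, so it is no separate support for the calls. Called changes downward were larger in fitted size: the median log2 fold change was 0.78 among transcripts called higher and -1.09 among those called lower, and 81 of the former but 220 of the latter passed 2-fold. Over all tested transcripts the median was -0.01. The number called depended on single libraries, being 424 without Koshihikari replicate 1, 287 without double-line replicate 1 and 270 without double-line replicate 2, and 229 transcripts were called in each of the 6 fits that left out 1 library. For the transcripts named below, a call was kept in each of these 6 fits unless a library is named.

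**Figure D1:**
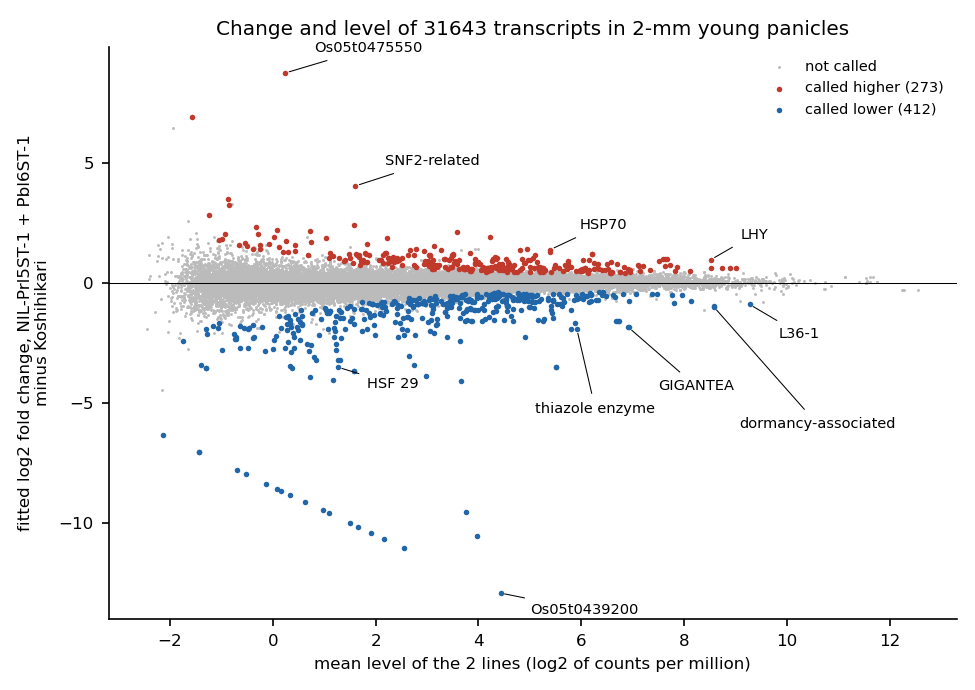
Fitted log2 fold change (double line minus Koshihikari) of each of the 31643 tested transcripts against the log2 of its mean cpm in the 2 lines. The 412 transcripts called lower reach further from 0 than the 273 called higher, and a diagonal row of points at the bottom left holds transcripts with counts of 0 in every double-line library, whose fitted change is set by their Koshihikari level.

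Functions were described with 47 lists of transcripts gathered by words in the deposited descriptions. The highest called shares, against 2.16% of all transcripts, were in circadian clock proteins (38.9%), thiamine and vitamin enzymes (23.8%), B-box and CONSTANS-like zinc fingers (5 of 25), gibberellin synthesis and response proteins (17.6%), HSP70, HSP90, HSP100 and chaperonin proteins (17.5%) and heat shock factors (17.2%). Among lists with at least 4 calls, all calls were lower for thiamine and vitamin enzymes, cytochrome P450 proteins, phosphorelay proteins, transporters, and F-box and RING proteins, and all were higher for pectin enzymes and glucan synthases. In that order, the called shares were 23.8%, 4.35%, 6.9%, 2.38%, 1.11%, 4.08% and 8.16%. The share of transporters was near that over all transcripts, and that of F-box and RING proteins lay below it. At an unadjusted p below 0.05, transporters had 11 higher and 16 lower, and F-box and RING proteins 24 higher and 45 lower. No call was made by edgeR's quasi-likelihood test in 8 lists, those of histones, DNA replication, cyclins, kinesins and tubulins, abscisic acid and LEA, brassinosteroid, squamosa promoter-binding and arabinogalactan proteins. At an unadjusted p below 0.05 the abscisic acid list had 12 higher and 6 lower of 63, and the arabinogalactan and squamosa lists 1 higher each. In these 8 lists DESeq2 called at most 2 transcripts and edgeR's exact test at most 4. Transcripts described as hypothetical were called about as often as any (2.2%), with 66 higher and 119 lower of 8394.

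**Figure D2:**
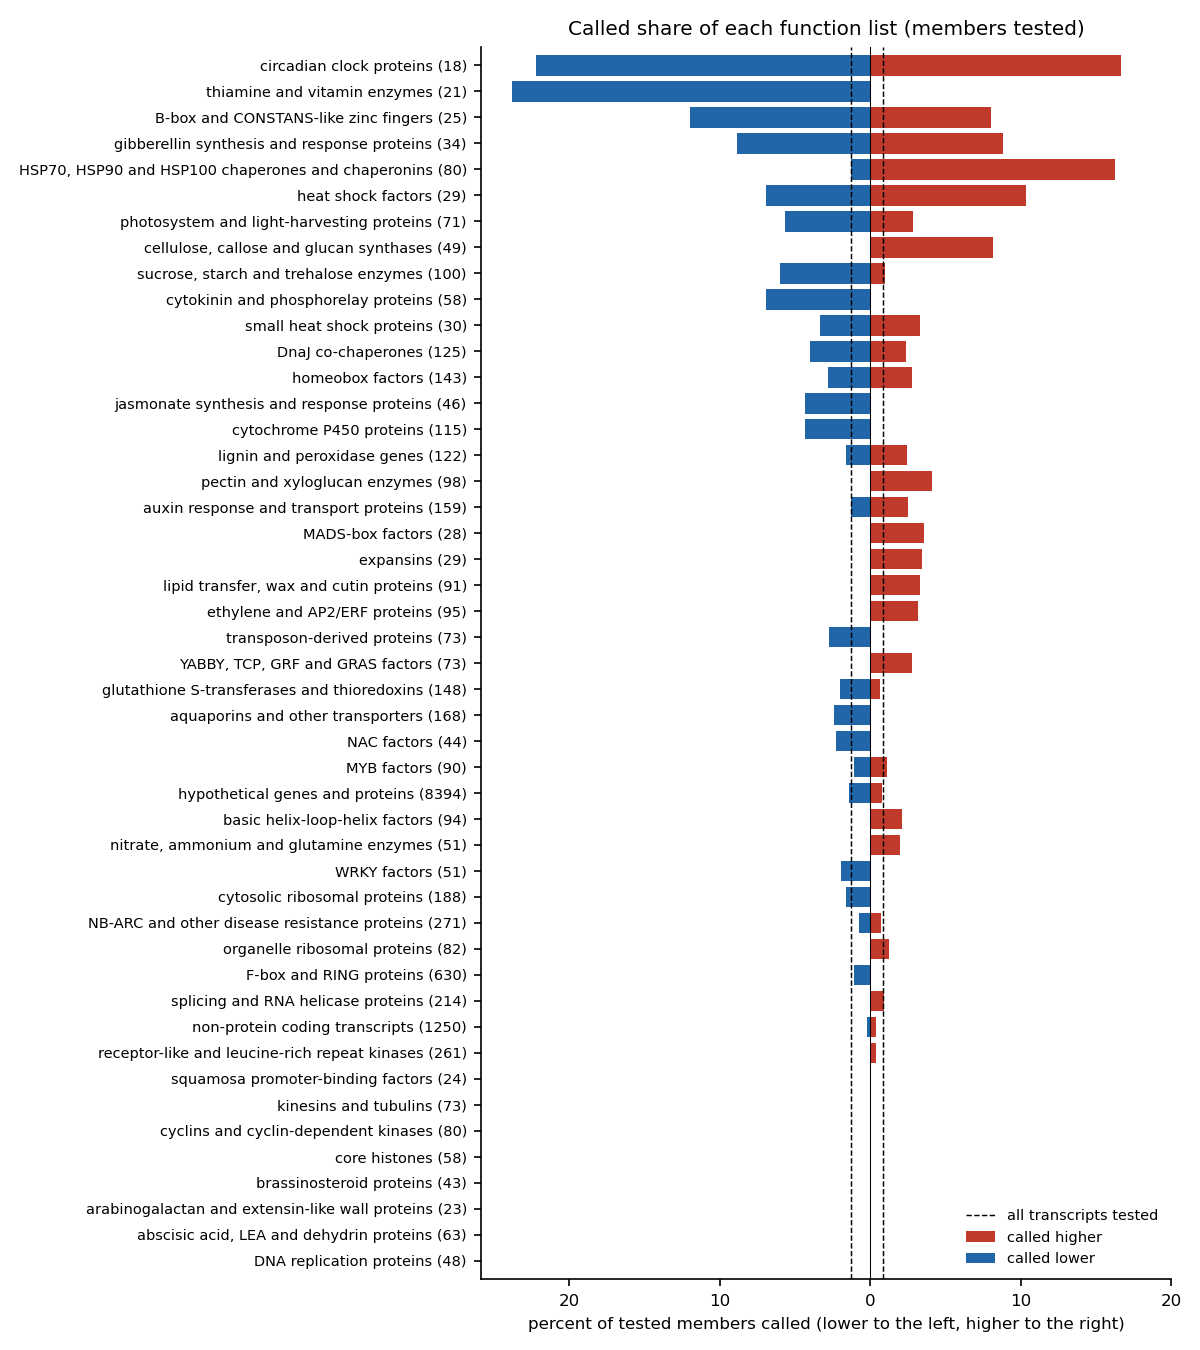
Percent of the tested members of each of 47 function lists that were called lower (blue, to the left) or higher (red, to the right) in the double line, with the number of members tested in brackets and the share over all transcripts in each direction as dashed lines. Circadian clock proteins have calls on both sides, thiamine and vitamin enzymes only to the left and the large chaperones almost only to the right.

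Circadian clock transcripts changed in both directions. The plant clock is a loop in which the MYB factor LHY, which peaks around dawn, represses genes expressed later in the day, among them GIGANTEA. Of 18 tested transcripts, 3 were higher and 4 lower, from 4 loci (median log2 fold change -0.16, against -0.01 over all transcripts). GIGANTEA (Os01t0182600-03), a large protein that acts with FKF1 in measuring day length, was at 187, 161 and 222 cpm in Koshihikari and 50.9, 50.2 and 55.9 cpm in the double line. Every double-line library lay far below every Koshihikari library (log2 fold change -1.87, standard error 0.121, adjusted p = 1.07e-05). An FKF1-like transcript (Os11t0547000-01), for a blue-light receptor F-box protein, was at 12.7, 14.7 and 14.7 cpm in Koshihikari and 3.69, 4.08 and 4.89 cpm in the double line, likewise far apart (log2 fold change -1.74, standard error 0.145, adjusted p = 7.92e-05). LHY (Os08t0157600-01) went the other way, at 255, 227 and 268 cpm in Koshihikari and 516, 444 and 501 cpm in the double line. It was higher in each double-line library, and the lines did not overlap (log2 fold change 0.96, standard error 0.108, adjusted p = 6.04e-04). An ELF3-like transcript (Os01t0566050-00), of a family that carries evening signals in the Arabidopsis clock, fell by 0.88 on the log2 scale (adjusted p = 0.0111). Os01t0566050-00 lost its call without double-line replicates 1 or 2 (adjusted p up to 0.0676).

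Another FKF1-like, another ELF3-like and another LHY-like transcript did not pass, nor did a PRR73-like response regulator. This does not hold for all response regulators: some whose descriptions name no clock part were called lower and are given below with the cytokinin list. Another FKF1-like transcript (Os06t0694000-01) had a log2 fold change of 0.27 (adjusted p = 0.168), another ELF3-like one (Os06t0142600-01) -0.15 (adjusted p = 0.6), another LHY-like one (Os04t0583900-01) 0.34 (adjusted p = 0.32) and a PRR73-like one (Os03t0284100-01) -0.18 (adjusted p = 0.6). GIGANTEA (Os01t0182600-03) was at 192 ± 9.1 cpm in NIL-Prl5ST-1 and 15.7 ± 2.48 cpm in NIL-Pbl6ST-1 (SD, n = 3), so that the double line lay between the lines with 1 segment, and it differed from each (log2 fold change -1.88, adjusted p = 2.59e-08 against NIL-Prl5ST-1 and log2 fold change 1.73, adjusted p = 2.91e-08 against NIL-Pbl6ST-1). LHY (Os08t0157600-01) was at 195 ± 1.42 cpm in NIL-Prl5ST-1 and 486 ± 22.7 cpm in NIL-Pbl6ST-1 (SD, n = 3). Between the double line and NIL-Pbl6ST-1 it differed by less than the spread between libraries (log2 fold change 0.00, adjusted p = 0.99). Over all transcripts, the double line differed from NIL-Prl5ST-1 in 25.3% and from NIL-Pbl6ST-1 in 0.777%, in comparisons that share the double-line libraries. The hour at which panicles were collected is not given in the sources used here.

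Some light-linked transcripts were also called. B-box zinc fingers, transcription factors that include CONSTANS and its relatives in flowering and light responses, had 2 called higher and 3 lower of 25. The B-box transcript Os01t0202500-01 was at 4.93, 5.94 and 4.33 cpm in Koshihikari and 2.29, 1.51 and 1.63 cpm in the double line, lower in each double-line library (log2 fold change -1.50, standard error 0.218, adjusted p = 0.00336). The light-regulated transcript Lir1 (Os01t0102900-01), of a chloroplast protein under clock and light control in rice, was at 28.2, 66.6 and 53.5 cpm in Koshihikari and 14.1, 6.61 and 11 cpm in the double line. The lines did not overlap (log2 fold change -2.25, standard error 0.302, adjusted p = 0.00203); Lir1 was chosen after its values were seen. The B-box transcripts called higher were Os02t0606200-01 (log2 fold change 0.88, adjusted p = 0.0491) and the CO-like Os02t0610500-01 (0.61, adjusted p = 0.0152). For the first the call was lost without Koshihikari replicates 1 or 3 or double-line replicates 1 or 2 (adjusted p up to 0.209), and for the second the call was lost without Koshihikari replicate 1 or double-line replicates 1 or 2 (adjusted p up to 0.104). The count in the list moved by over 1.5 times: it was 2 without Koshihikari replicate 1, 3 without Koshihikari replicate 3, 1 without double-line replicate 1 and 1 without double-line replicate 2. Photosystem and light-harvesting transcripts had a summed level of 313 to 446 cpm in Koshihikari and 304 to 355 cpm in the double line, overlapping. Of 71, 2 were called higher and 4 lower (8.45%, beside 2.16% over all transcripts), a count that moved by over 1.5 times: it was 2 without double-line replicate 1, 2 without double-line replicate 2 and 3 without double-line replicate 3. Among these, a PsbQ family transcript of the oxygen-evolving complex (Os07t0105600-01) was at 2.88, 3.88 and 3.69 cpm in Koshihikari and 1.25, 1.02 and 1.09 cpm in the double line, lower in each double-line library (log2 fold change -1.65, standard error 0.224, adjusted p = 0.00223).

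**Figure D3:**
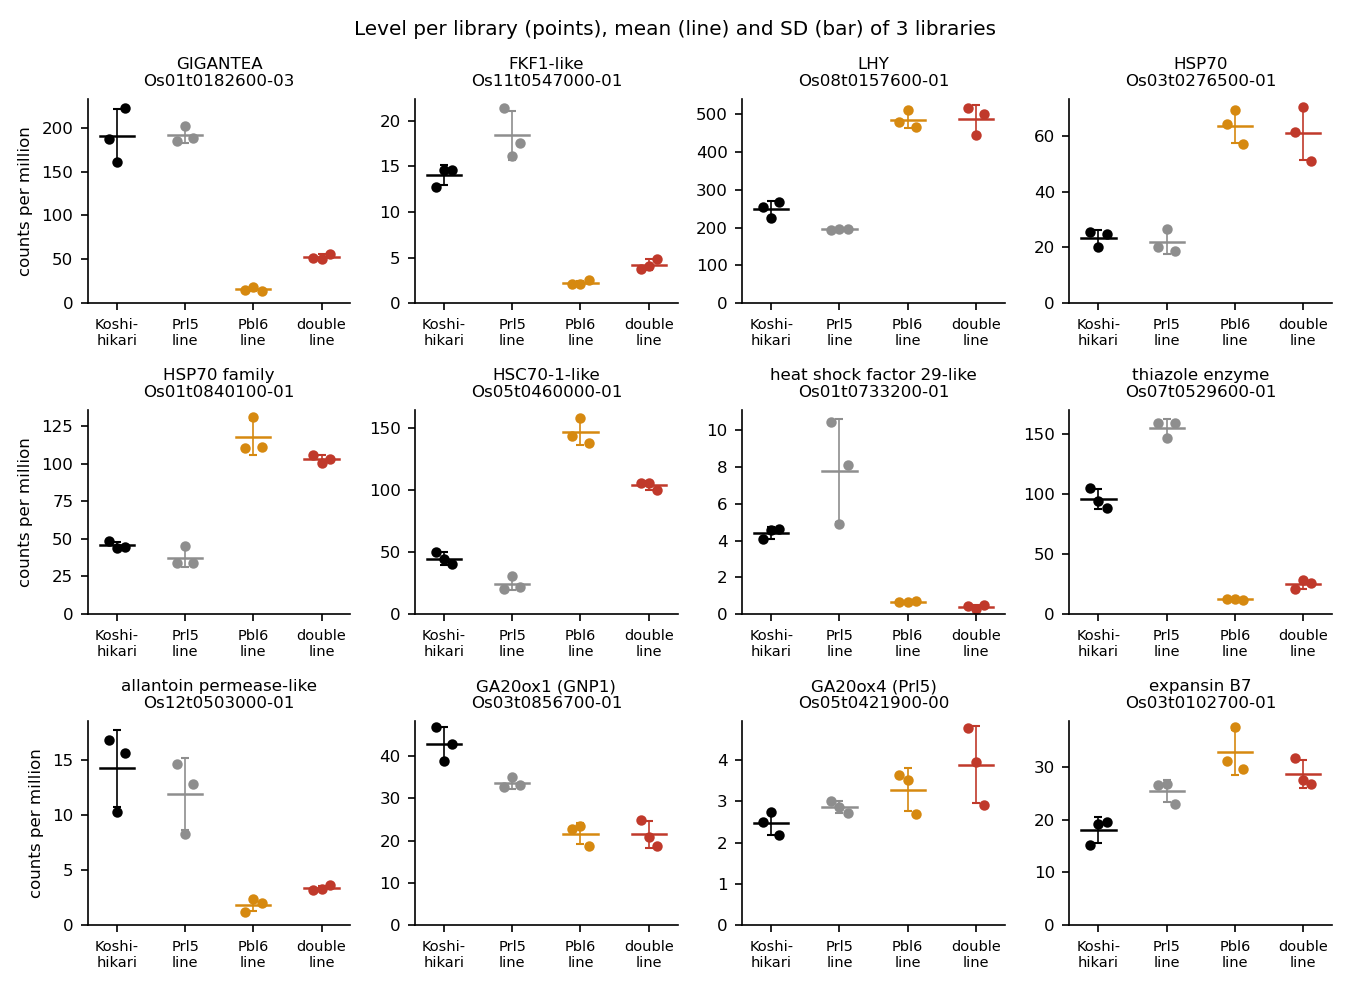
Level (cpm) in each library (points), with the mean (line) and SD (bar) of 3 libraries, for 12 transcripts, with Koshihikari in black, the line with the Prl5 segment in grey, that with the Pbl6 segment in orange and the double line in red; each vertical axis starts at 0. GIGANTEA falls from 161 to 222 cpm in Koshihikari to 50.2 to 55.9 cpm in the double line, LHY is at 227 to 268 cpm and 444 to 516 cpm, and GA20ox4 (Prl5) stays below 5 cpm throughout.

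Of the large heat shock chaperones, nearly all that were called were higher in the double line. HSP70 proteins fold new and damaged proteins, HSP90 holds signalling proteins in an active form, and HSP100/ClpB proteins pull aggregates apart. Of 80 tested transcripts, 13 were higher and 1 lower, from 13 loci, with a median log2 fold change of 0.27 against -0.01 over all transcripts. The summed level of the list was 19340 to 20391 cpm in Koshihikari and 22665 to 25022 cpm in the double line, without overlap. The number of calls moved by over 1.5 times: it was 6 without Koshihikari replicate 1, 6 without double-line replicate 1 and 5 without double-line replicate 2.

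The chaperones with the largest change by the rule for naming were all of the HSP70 family. HSP70 (Os03t0276500-01) was at 25.4, 20.2 and 24.8 cpm in Koshihikari and 61.4, 70.5 and 51 cpm in the double line. It rose in each double-line library (log2 fold change 1.37, standard error 0.131, adjusted p = 2.05e-04). Another HSP70 family transcript (Os01t0840100-01) was at 48.6, 43.7 and 44.5 cpm in Koshihikari and 106, 100.3 and 103 cpm in the double line, higher throughout with a narrow spread (log2 fold change 1.17, standard error 0.0887, adjusted p = 3.43e-05). A 70 kDa heat shock cognate transcript (Os05t0460000-01) was at 49.7, 44.3 and 39.9 cpm in Koshihikari and 106, 106 and 99.6 cpm in the double line, again without overlap (log2 fold change 1.21, standard error 0.101, adjusted p = 7.87e-05). In the single lines this transcript was at 24.3 ± 5.3 cpm in NIL-Prl5ST-1 and 146 ± 10.1 cpm in NIL-Pbl6ST-1 (SD, n = 3), and its identifier lies in the stretch of chromosome 5 described below. Members of the disaggregase class also rose, chosen after their values were seen: ClpB (Os02t0181900-01, log2 fold change 0.98, adjusted p = 0.00294) and HSP101 (Os05t0519700-01, 0.98, adjusted p = 0.0155), for which the call was lost without Koshihikari replicate 1 or double-line replicates 1 or 2 (adjusted p up to 0.0776). The HSP90-type HSP82 (Os08t0500700-01) was at 351, 313 and 353 cpm in Koshihikari and 465, 577 and 506 cpm in the double line, a smaller rise (log2 fold change 0.60, standard error 0.113, adjusted p = 0.0169). Os08t0500700-01 lost its call without Koshihikari replicate 1 or double-line replicate 2 (adjusted p up to 0.0975). The member called lower, an RbcX-like chaperonin (Os07t0569600-01) of the kind that assists Rubisco assembly, fell by 1.11 on the log2 scale (adjusted p = 0.0115).

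Small heat shock proteins had 1 called higher and 1 lower of 30 (median -0.10, called share 6.67% beside 2.16% over all transcripts), a count that moved by over 1.5 times: it was 1 without double-line replicate 2. DnaJ co-chaperones, which deliver substrates to HSP70, had 3 higher and 5 lower of 125 (6.4%). The DnaJ transcript Os03t0300600-01 was at 19.5, 27.3 and 19.4 cpm in Koshihikari and 6.6, 8.27 and 6.86 cpm in the double line, down in each double-line library (log2 fold change -1.60, standard error 0.159, adjusted p = 2.57e-04), whereas the DnaJ-like Os05t0562300-01 was at 8.47, 8.1 and 9.01 cpm in Koshihikari and 22, 20.8 and 17.4 cpm in the double line, up in each (log2 fold change 1.23, standard error 0.123, adjusted p = 2.59e-04). Heat shock factors, the transcription factors that switch on chaperone genes, had 3 higher and 2 lower of 29, with a median log2 fold change of 0.22. Of the 29, 22 had a fitted value above 0, and 10 higher and 2 lower were at an unadjusted p below 0.05. Their summed level was 492 to 530 cpm in Koshihikari and 547 to 591 cpm in the double line, without overlap. The count of calls moved by over 1.5 times: it was 2 without Koshihikari replicate 1, 9 without Koshihikari replicate 2, 3 without Koshihikari replicate 3, 2 without double-line replicate 1 and 2 without double-line replicate 2. Heat shock factor 29-like (Os01t0733200-01) was at 4.06, 4.6 and 4.61 cpm in Koshihikari and 0.416, 0.264 and 0.494 cpm in the double line. It was far lower in each double-line library (log2 fold change -3.52, standard error 0.263, adjusted p = 3.28e-05), where NIL-Pbl6ST-1 was also low (the single lines were at 7.81 ± 2.79 cpm in NIL-Prl5ST-1 and 0.673 ± 0.0324 cpm in NIL-Pbl6ST-1 (SD, n = 3)). Heat shock factor 31-like (Os02t0527300-01) was at 6.46, 5.89 and 5.64 cpm in Koshihikari and 1.97, 1.28 and 2.17 cpm in the double line, also lower throughout (log2 fold change -1.75, standard error 0.209, adjusted p = 9.31e-04). A transcript similar to heat stress factor Spl7 (Os04t0568700-00), known in rice for a lesion-mimic mutant, had a log2 fold change of 0.86 (adjusted p = 0.0228). Os04t0568700-00 lost its call without Koshihikari replicates 1 or 3 or double-line replicates 1 or 2 (adjusted p up to 0.126).

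**Figure D4:**
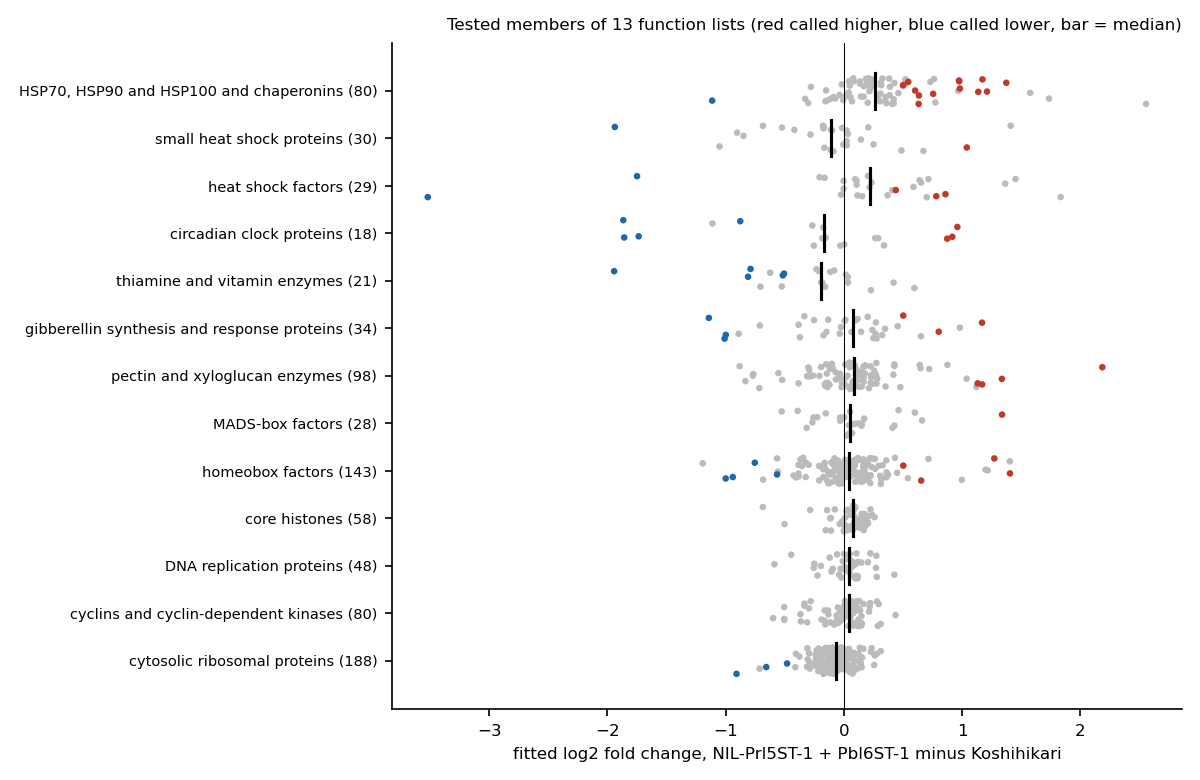
Fitted log2 fold change (double line minus Koshihikari) of each tested member of 13 function lists, with the number of members in brackets; red points were called higher, blue lower, grey points were not called, and the black bar is the median. The chaperone list is shifted to the right (median 0.27), clock members called lie on both sides, and histone, replication and cyclin members lie close to 0 with none called.

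All called transcripts of thiamine synthesis were lower. Thiamine (vitamin B1) is made by joining a thiazole and a pyrimidine ring, made by THI1-type and thiC enzymes. Of 21 tested transcripts in the list, 5 were lower and none higher, from 3 loci (median -0.19). The thiazole enzyme (Os07t0529600-01) was at 105, 94.2 and 88.3 cpm in Koshihikari and 20.6, 28.7 and 25.5 cpm in the double line. Each double-line library was far below each Koshihikari library (log2 fold change -1.94, standard error 0.126, adjusted p = 1.07e-05). In the single lines it was at 155 ± 7.5 cpm in NIL-Prl5ST-1 and 12.1 ± 0.555 cpm in NIL-Pbl6ST-1 (SD, n = 3), on either side of Koshihikari. ThiC (Os03t0679700-02) was at 5.46, 4.69 and 6.83 cpm in Koshihikari and 3.32, 3.02 and 3.41 cpm in the double line, a smaller fall (log2 fold change -0.81, standard error 0.182, adjusted p = 0.0422). Os03t0679700-02 lost its call without Koshihikari replicates 1 or 3 or double-line replicates 1, 2 or 3 (adjusted p up to 0.197). The remaining called locus in the list, 1-deoxy-D-xylulose-5-phosphate synthase (Os05t0408900-02), belongs to isoprenoid synthesis, so the count of the list is not of thiamine synthesis alone. This transcript fell by 0.52 on the log2 scale (adjusted p = 0.0417). Os05t0408900-02 lost its call without Koshihikari replicates 1, 2 or 3 or double-line replicates 1, 2 or 3 (adjusted p up to 0.207). Its identifier lies in the stretch of chromosome 5 described below, and the single lines were at 5.62 ± 1.17 cpm in NIL-Prl5ST-1 and 22.3 ± 3.48 cpm in NIL-Pbl6ST-1 (SD, n = 3), in the opposite order to the thiazole enzyme. The count in the list moved by over 1.5 times: it was 1 without Koshihikari replicate 1, 1 without Koshihikari replicate 3, 1 without double-line replicate 1, 1 without double-line replicate 2 and 1 without double-line replicate 3.

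Called transcripts of starch and sugar metabolism were mostly lower as well. Sucrose, starch and trehalose enzymes had 1 called higher and 6 lower of 100 (7%, beside 2.16% over all transcripts), and that count moved by over 1.5 times: it was 3 without Koshihikari replicate 3, 1 without double-line replicate 1, 1 without double-line replicate 2 and 11 without double-line replicate 3. Starch excess 4-like (Os03t0107800-01), a phosphatase that opens starch granules for breakdown in Arabidopsis, was at 14.1, 14.4 and 13.8 cpm in Koshihikari and 6.65, 7.18 and 8.3 cpm in the double line. It fell in each double-line library (log2 fold change -0.94, standard error 0.125, adjusted p = 0.002). A beta-amylase-like transcript (Os03t0351300-00), for an enzyme that releases maltose from starch, was at 51.2, 42.3 and 31.8 cpm in Koshihikari and 20.8, 22.4 and 28.8 cpm in the double line (log2 fold change -0.80, standard error 0.168, adjusted p = 0.0305). Os03t0351300-00 lost its call without Koshihikari replicate 1 or double-line replicates 1 or 2 (adjusted p up to 0.175). Alpha-amylase 3D (Os08t0473900-01), the sugar-repressed amylase of rice and named after its values were seen, was at 0.262, 0.766 and 1.23 cpm in Koshihikari and 0, 0.0378 and 0.148 cpm in the double line, at most 3 counts in each double-line library (adjusted p = 0.0428). Os08t0473900-01 lost its call without Koshihikari replicate 3 or double-line replicates 1 or 2 (adjusted p up to 0.223).

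Further lower groups were gathered after the values were seen and are given as descriptions. Of 17 dormancy, sugar starvation and senescence transcripts, 4 were lower and none higher (23.5%, beside 2.16% over all transcripts). That count moved by over 1.5 times: it was 2 without double-line replicate 1 and 1 without double-line replicate 2. The dormancy-associated transcript Os11t0671000-01 was at 386, 656 and 489 cpm in Koshihikari and 262, 239 and 263 cpm in the double line, with each double-line library below each Koshihikari library (log2 fold change -1.01, standard error 0.164, adjusted p = 0.00727). Os11t0671000-01 lost its call without double-line replicate 2 (adjusted p up to 0.0581). The senescence-associated DIN1-like transcript (Os12t0428000-01), named after dark-inducible genes, was at 5.41, 13.7 and 9.89 cpm in Koshihikari and 2.49, 2.27 and 2.77 cpm in the double line, lower throughout (log2 fold change -1.95, standard error 0.29, adjusted p = 0.00394). In both, Koshihikari replicate 2 was the highest library. Of 26 enzymes of branched-chain amino acid and fatty acid breakdown, 5 were lower and none higher (19.2%). The count moved by over 1.5 times: it was 3 without Koshihikari replicate 3, 1 without double-line replicate 1 and 2 without double-line replicate 2. Among them was an acyl-CoA oxidase (Os11t0605500-01), the first enzyme of peroxisomal beta-oxidation, at 18.1, 23.1 and 24.2 cpm in Koshihikari and 10.3, 8.08 and 11.3 cpm in the double line (log2 fold change -1.15, standard error 0.15, adjusted p = 0.0018). Of 22 ureide and purine breakdown proteins, 6 were lower and none higher (27.3%). These came from 3 loci, and 4 of the 6 were transcripts of 1 locus for an allantoin permease (Os12t0503000-01), which moves the nitrogen-rich purine product allantoin across membranes. It was at 16.8, 10.2 and 15.6 cpm in Koshihikari and 3.22, 3.25 and 3.61 cpm in the double line, lower in each double-line library (log2 fold change -2.09, standard error 0.189, adjusted p = 1.28e-04). Myo-inositol oxygenase (Os06t0561000-01), which turns inositol into a wall sugar precursor, was at 13, 23.8 and 26.8 cpm in Koshihikari and 2.6, 4.49 and 4.49 cpm in the double line, lower without overlap (log2 fold change -2.45, standard error 0.268, adjusted p = 4.67e-04).

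Early nodulins are named for genes first found in legume nodules, and their list was also gathered after the values were seen. In it, 4 of 9 transcripts were lower (44.4%, beside 2.16% over all transcripts). These 4 loci have neighbouring identifiers on chromosome 6 (Os06t0141600 to Os06t0142400), far in number from Pbl6 (Os06t0665400). Of these, Os06t0142200-01 was at 49.8, 87.1 and 60.7 cpm in Koshihikari and 36.5, 29.5 and 33.7 cpm in the double line, with Koshihikari replicate 2 highest (log2 fold change -0.99, standard error 0.174, adjusted p = 0.0117). Os06t0142200-01 lost its call without double-line replicate 2 (adjusted p up to 0.0909). The count in the family moved by over 1.5 times: it was 1 without double-line replicate 1, 0 without double-line replicate 2 and 2 without double-line replicate 3. Bowman-Birk trypsin inhibitors, small defence and seed proteins that were likewise gathered after the values were seen, had 3 of 6 lower (50%). Their count moved by over 1.5 times: it was 1 without Koshihikari replicate 3, 0 without double-line replicate 1, 0 without double-line replicate 2 and 1 without double-line replicate 3. The inhibitor transcript Os03t0823400-01 was at 36.4, 75.9 and 63.3 cpm in Koshihikari and 25, 20.7 and 33.6 cpm in the double line (log2 fold change -1.15, standard error 0.236, adjusted p = 0.0271). Os03t0823400-01 lost its call without double-line replicates 1 or 2 (adjusted p up to 0.164). Cytochrome P450 proteins, oxygenases of hormone and secondary metabolism, had 5 lower of 115 and none higher (4.35%, beside 2.16% over all transcripts), from 4 loci. That count moved by over 1.5 times: it was 3 without Koshihikari replicate 3, 1 without double-line replicate 1 and 0 without double-line replicate 2. Among F-box and RING proteins, which mark other proteins for breakdown, 7 of 630 were lower and none higher (1.11%), beside 2.16% over all transcripts, a count that moved by over 1.5 times: it was 4 without double-line replicate 2. The RING transcript Os10t0445400-01 was at 9.08, 13.4 and 11 cpm in Koshihikari and 2.39, 2.19 and 2.86 cpm in the double line (log2 fold change -2.18, standard error 0.187, adjusted p = 1.05e-04).

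Gibberellin synthesis and response proteins had 3 called higher and 3 lower of 34 (17.6%, beside 2.16% over all transcripts), from 5 loci, and the count moved by over 1.5 times: it was 2 without Koshihikari replicate 1, 2 without double-line replicate 1 and 3 without double-line replicate 2. GA20ox1 (GNP1, Os03t0856700-01), a GA 20-oxidase of the same family as Prl5, was at 46.9, 38.7 and 42.8 cpm in Koshihikari and 24.9, 20.9 and 18.6 cpm in the double line. It was lower in each double-line library (log2 fold change -0.999, standard error 0.121, adjusted p = 9.63e-04). The single lines were at 33.6 ± 1.33 cpm in NIL-Prl5ST-1 and 21.6 ± 2.53 cpm in NIL-Pbl6ST-1 (SD, n = 3). The transcript Os02t0278700-01, described as similar to kaurene synthase A and of a family acting at the start of the pathway, was at 2.53, 2.3 and 2.46 cpm in Koshihikari and 1.19, 0.869 and 1.28 cpm in the double line (log2 fold change -1.14, standard error 0.236, adjusted p = 0.0284). Os02t0278700-01 lost its call without Koshihikari replicates 1 or 3 or double-line replicates 1 or 2 (adjusted p up to 0.148). Higher in the double line was a gibberellin-regulated protein (Os05t0376800-01), of a family of small secreted peptides, at 1.88, 1.87 and 1.95 cpm in Koshihikari and 5.3, 4.04 and 3.56 cpm in the double line (log2 fold change 1.17, standard error 0.206, adjusted p = 0.0119). Os05t0376800-01 lost its call without Koshihikari replicate 1 or double-line replicate 1 (adjusted p up to 0.0726). Sd1 (GA20ox2, Os01t0883800-02), the green revolution semi-dwarf gene, was at 0.48, 0.623 and 1.11 cpm in Koshihikari and 1.77, 1.25 and 1.48 cpm in the double line, with a log2 fold change of 0.98 that did not pass (adjusted p = 0.19).

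Among auxin transcripts, 4 were higher and 2 lower of 159 (3.77%, beside 2.16% over all transcripts), and the count moved by over 1.5 times: it was 2 without Koshihikari replicate 1, 1 without double-line replicate 1, 2 without double-line replicate 2 and 3 without double-line replicate 3. Flavin monooxygenases described as auxin biosynthesis enzymes, of the YUCCA kind, gave 2 of the called loci, both higher. Os01t0732700-01 was at 2.1, 2.49 and 2.18 cpm in Koshihikari and 5.25, 4.42 and 5.38 cpm in the double line (log2 fold change 1.14, standard error 0.181, adjusted p = 0.00584). Os07t0437000-01 was at 1.57, 2.2 and 1.83 cpm in Koshihikari and 4.26, 3.51 and 3.61 cpm in the double line (log2 fold change 1.02, standard error 0.204, adjusted p = 0.0251). Os07t0437000-01 lost its call without Koshihikari replicates 1 or 3 or double-line replicates 1 or 2 (adjusted p up to 0.138). The largest change named in the list was downward, in a transcript described as dormancy- and auxin-associated (Os09t0437500-01, log2 fold change -1.53, adjusted p = 0.0215). Its call was kept in 4 of the 6 fits that left out 1 library. The cytokinin and phosphorelay list had 4 lower of 58 and none higher (6.9%), from 3 loci. The count of calls moved by over 1.5 times: it was 1 without double-line replicate 1 and 1 without double-line replicate 2. The response regulator Os02t0618200-01 was at 17.4, 19.4 and 21.9 cpm in Koshihikari and 9.92, 9.1 and 8.64 cpm in the double line, lower in each double-line library (log2 fold change -1.09, standard error 0.123, adjusted p = 5.90e-04). Another response regulator, Os09t0532400-02, fell by 0.71 on the log2 scale (adjusted p = 0.0393), and its call was kept in 3 of the 6 fits that left out 1 library. Both descriptions name only a receiver domain and no tie to cytokinin, so these calls are not shown to belong to cytokinin signalling. Ethylene and AP2/ERF proteins had 3 higher of 95 (3.16%, beside 2.16% over all transcripts), a count that moved by over 1.5 times: it was 1 without Koshihikari replicate 1, 1 without double-line replicate 1, 1 without double-line replicate 2 and 1 without double-line replicate 3. Among them was an ethylene-responsive coactivator (Os06t0592500-01) at 4.67, 3.74 and 2.98 cpm in Koshihikari and 11.4, 10.01 and 8.35 cpm in the double line, higher throughout (log2 fold change 1.38, standard error 0.187, adjusted p = 0.00211).

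Cell wall enzymes that were called were mostly higher. Pectin and xyloglucan enzymes had 4 higher and none lower of 98 (4.08%), and that count stayed within 1.5 times in each fit that left out 1 library. Polygalacturonases, which cut the pectin that glues cells together, were 3 of the 4. Os05t0279900-00 was at 4.67, 4.79 and 3.53 cpm in Koshihikari and 11.8, 11.6 and 9.38 cpm in the double line (log2 fold change 1.34, standard error 0.163, adjusted p = 0.00106). Os01t0636500-01 was at 4.63, 5.36 and 5.36 cpm in Koshihikari and 11.7, 9.48 and 12.7 cpm in the double line (log2 fold change 1.13, standard error 0.151, adjusted p = 0.00203), and its neighbour in identifier Os01t0637500-00 at 2.4, 2.78 and 2.94 cpm in Koshihikari and 6.28, 5.17 and 6.96 cpm in the double line (log2 fold change 1.17, standard error 0.18, adjusted p = 0.0051). All 3 were higher in each double-line library than in any Koshihikari library. Glucan and cellulose synthases had 4 higher of 49 (8.16%), from 3 loci, and that count moved by over 1.5 times. It was 2 without double-line replicate 2 and 0 when at least 10 counts were required in each of the 6 libraries. A cellulose synthase family transcript (Os08t0160500-01) was at 20.6, 14.8 and 15.2 cpm in Koshihikari and 23.5, 29.9 and 24.9 cpm in the double line (log2 fold change 0.63, standard error 0.142, adjusted p = 0.0437). Os08t0160500-01 lost its call without Koshihikari replicates 2 or 3 or double-line replicates 1, 2 or 3 (adjusted p up to 0.241). Mixed-linked glucan synthase 2-like transcripts make the beta-glucan typical of grass walls, and that of Os07t0552800-02 was at 0.0873, 0.144 and 0.0397 cpm in Koshihikari and 0.727, 1.21 and 1.09 cpm in the double line, with at most 3 counts in each Koshihikari library (adjusted p = 0.00276). The adjacent Os07t0553000-00 was at 0.218, 0.479 and 0.119 cpm in Koshihikari and 1.09, 1.62 and 1.28 cpm in the double line (log2 fold change 2.33, standard error 0.422, adjusted p = 0.0142), and the call was lost without Koshihikari replicate 1 or double-line replicate 2 (adjusted p up to 0.0862); both were named after their values were seen. BETA-EXPANSIN7 (Os03t0102700-01), of the proteins that loosen grass walls, was at 15.1, 19.2 and 19.7 cpm in Koshihikari and 31.8, 27.6 and 26.9 cpm in the double line, the 1 called of 29 expansins (log2 fold change 0.67, standard error 0.122, adjusted p = 0.0148). Os03t0102700-01 lost its call without Koshihikari replicate 1 or double-line replicates 1 or 2 (adjusted p up to 0.0883). The lignin and peroxidase list had 3 higher and 2 lower of 122 (4.1%, beside 2.16% over all transcripts), a count that moved by over 1.5 times: it was 2 without Koshihikari replicate 1, 2 without double-line replicate 1 and 2 without double-line replicate 2. In it, caffeoyl-CoA O-methyltransferase (Os08t0498400-01), a lignin precursor enzyme, was at 29.5, 38.4 and 27.1 cpm in Koshihikari and 15.5, 17.4 and 15.9 cpm in the double line, lower throughout (log2 fold change -0.96, standard error 0.135, adjusted p = 0.00276). Superoxide dismutases, enzymes that remove superoxide and were gathered after their values were seen, had 2 higher of 14 (14.3%, beside 2.16% over all transcripts). Os03t0351500-01 rose by a log2 fold change of 0.75 (adjusted p = 0.0115), and its call was lost without double-line replicate 1 (adjusted p up to 0.0699). Os07t0665200-01 rose by 0.74 (adjusted p = 0.0162), and its call was lost without Koshihikari replicate 1 or double-line replicate 1 (adjusted p up to 0.0777).

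MADS-box factors, which set floral organ and meristem identity, had 1 of 28 called (3.57%, beside 2.16% over all transcripts), and that transcript (Os07t0160100-03, log2 fold change 1.34, adjusted p = 0.0121) belongs to a locus whose other transcript is described as YABBY1. For the MADS-box transcript the call was lost without Koshihikari replicate 1 (adjusted p up to 0.0648). YABBY1 (Os07t0160100-02), of a family tied to lateral organ growth, was at 13.8, 12.7 and 24.3 cpm in Koshihikari and 37.9, 38.8 and 58.5 cpm in the double line. It was higher in each double-line library (log2 fold change 1.40, standard error 0.229, adjusted p = 0.00739). Its level in the single lines was 59.1 ± 15.2 cpm in NIL-Prl5ST-1 and 20.01 ± 5.25 cpm in NIL-Pbl6ST-1 (SD, n = 3). Another YABBY transcript (Os02t0643200-01) was at 58.3, 52.4 and 62.1 cpm in Koshihikari and 83.7, 88 and 79.7 cpm in the double line (log2 fold change 0.54, standard error 0.0943, adjusted p = 0.0118), named after its values were seen. Os02t0643200-01 lost its call without double-line replicates 1 or 2 (adjusted p up to 0.089). Homeobox and homeodomain-like factors had 4 higher and 4 lower of 143 (5.59%), and that count moved by over 1.5 times: it was 2 without Koshihikari replicate 1, 1 without double-line replicate 1 and 1 without double-line replicate 2. Homeodomain-like is a fold that MYB-type proteins also have. The member that changed most under the rule for naming was Os06t0728700-01, at 23.4, 27 and 22.9 cpm in Koshihikari and 59.2, 57.1 and 61.2 cpm in the double line (log2 fold change 1.27, standard error 0.0988, adjusted p = 4.28e-05). Among KNOX genes, which keep meristem cells undetermined, 3 that the deposited descriptions name did not pass, and OSH1 was not analysed here. OSH15 (Os07t0129700-01) had a log2 fold change of 0.21 (adjusted p = 0.34), OSH6 (Os01t0302500-01) -0.08 (adjusted p = 0.755) and OSH71 (Os05t0129700-01) 0.12 (adjusted p = 0.61). None of 24 squamosa promoter-binding factors was called by edgeR's quasi-likelihood test, with 1 at an unadjusted p below 0.05 and none called by DESeq2 or edgeR's exact test.

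Lists that mark the tissue were present in every library. The summed level of MADS-box factors was 1597 to 1711 cpm in Koshihikari and 1673 to 1853 cpm in the double line, and that of homeobox factors was 4078 to 4183 cpm and 4319 to 4597 cpm, the latter without overlap. Core histones summed to 22425 to 30284 cpm and 23339 to 28829 cpm, DNA replication proteins to 2313 to 2505 cpm and 2391 to 2628 cpm, and cyclins with their kinases to 2608 to 2647 cpm and 2695 to 2747 cpm, the last again without overlap. No transcript of these 3 lists was called. At an unadjusted p below 0.05 there were 1 higher and 2 lower of 58 histone transcripts, 3 higher and 4 lower of 48 replication transcripts and 4 higher and 3 lower of 80 cyclin transcripts. DESeq2 called 1 histone transcript and none of the others, and edgeR's exact test called 1 histone and 1 replication transcript. Cytosolic ribosomal proteins had 3 lower of 188 (1.6%, near the 1.3% called lower over all transcripts), from 2 loci, both on chromosome 5, a count that moved by over 1.5 times: it was 1 without Koshihikari replicate 1, 1 without double-line replicate 1, 1 without double-line replicate 2 and 1 without double-line replicate 3. The identifiers of both loci lie in the stretch of chromosome 5 described below. The 60S protein L36-1 (Os05t0459900-01) was at 763, 935 and 726 cpm in Koshihikari and 468, 438 and 390.2 cpm in the double line, well below Koshihikari in each double-line library (log2 fold change -0.91, standard error 0.129, adjusted p = 0.00291). In the single lines it was at 720 ± 102 cpm in NIL-Prl5ST-1 and 868 ± 81.1 cpm in NIL-Pbl6ST-1 (SD, n = 3). What part the share of cell types plays in the list sums was not tested.

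The called transcripts were unevenly spread over the chromosomes. Chromosome 5 held 135 of the 685 (19.7%) but 8.29% of the tested transcripts, so that 5.15% of its transcripts were called, 45 higher and 90 lower. Chromosome 6 held 44, or 1.72% of its transcripts, and the other chromosomes were called at between 1.16% (chromosome 10) and 2.48% (chromosome 4). In each fit that left out 1 library, chromosome 5 held the most calls, with 81 without Koshihikari replicate 1, 75 without double-line replicate 1, 63 without double-line replicate 2 and between 112 and 154 in the others. Identifier numbers of rice loci follow their order along a chromosome. On chromosome 5, calls were dense between the numbers 380000 and 520000, a range set after the values were seen, with 95 of 849 transcripts called (11.2%) against 40 of 1773 (2.26%) elsewhere on that chromosome. Prl5 (Os05t0421900) lies inside it. Around Pbl6 no such density was seen: 2 of 126 transcripts between 660000 and 680000 on chromosome 6 were called (1.59%).

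**Figure D5:**
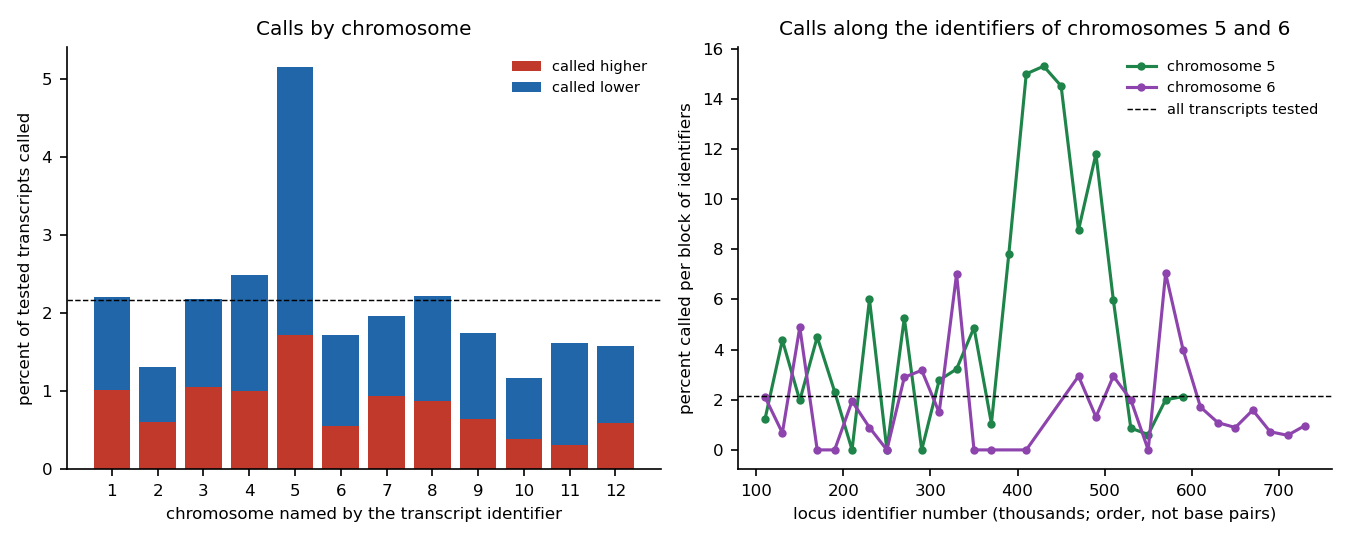
Left, percent of tested transcripts called higher (red) and lower (blue) on each chromosome, with the share over all transcripts as a dashed line. Right, percent called in successive blocks of 20000 locus identifier numbers on chromosomes 5 and 6, where the blocks of chromosome 5 between 400000 and 460000 reach 14.5% to 15.3% and the last blocks of chromosome 6, around Pbl6, stay at 1.71% or less.

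Some transcripts of chromosome 5 were all but lost in the double line. Of the 24 called transcripts with at most 3 counts in each double-line library, 11 lay on chromosome 5, all in the range above. Os05t0439200-01, a hypothetical protein, was at 39, 56.1 and 34.3 cpm in Koshihikari and 0, 0 and 0 cpm in the double line, at least 310-fold lower by the floor of 3 counts per library. In the single lines it was at 0 ± 0 cpm in NIL-Prl5ST-1 and 41.1 ± 3.16 cpm in NIL-Pbl6ST-1 (SD, n = 3), at 0 with the Prl5 segment and near the Koshihikari level without it. An HMG-I and HMG-Y DNA-binding protein (Os05t0412300-01), of a class that bends AT-rich DNA, was at 24.1, 33 and 24 cpm in Koshihikari and 0.0519, 0 and 0.0494 cpm in the double line (adjusted p = 3.65e-08). The conserved hypothetical Os05t0412400-01, with a neighbouring identifier, was at 27.7, 39.4 and 27 cpm in Koshihikari and 0.0519, 0 and 0 cpm in the double line (adjusted p = 4.02e-08). In both, the double line had at most 1 count per library. A DUF659 domain protein (Os05t0414400-02) was at least 84.5-fold lower, Os05t0441500-01 at least 40.6-fold and Os05t0448700-01 at least 28.5-fold. Whether reads from ST-1 alleles matched the reference transcripts less often was not tested.

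Other transcripts of the same stretch were gained. The non-coding transcript Os05t0475550-00 had 0 counts in each Koshihikari library and was at 2.75, 2.12 and 2.22 cpm in the double line, at least 18.0-fold higher. Its neighbour Os05t0475600-00, also at 0 in Koshihikari, was at 0.883, 0.491 and 0.642 cpm, at least 5.1-fold higher. A chitinase-like transcript (Os05t0399300-01), for an enzyme that cuts fungal walls, was at 0.393, 1.34 and 1.11 cpm in Koshihikari and 5.3, 4.99 and 4.79 cpm in the double line (log2 fold change 2.40, standard error 0.302, adjusted p = 0.00134). A potassium channel transcript similar to maize ZMK2 (Os05t0428700-01) was at 4.93, 3.74 and 4.76 cpm in Koshihikari and 16.8, 19.2 and 22.4 cpm in the double line, far above Koshihikari in each double-line library (log2 fold change 2.11, standard error 0.152, adjusted p = 2.34e-05). In the single lines the channel was at 14.1 ± 2.94 cpm in NIL-Prl5ST-1 and 3.97 ± 0.393 cpm in NIL-Pbl6ST-1 (SD, n = 3), and the double line differed from NIL-Pbl6ST-1 (log2 fold change 2.28, adjusted p = 2.91e-08).

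Outside the introgressed chromosomes, 506 of 26465 transcripts were called (1.91%). The largest gain among named transcripts there was an SNF2-related transcript on chromosome 2 (Os02t0650800-00), of the family of ATP-driven chromatin remodellers, at 0.393, 0.144 and 0.476 cpm in Koshihikari and 4.78, 4.65 and 7.85 cpm in the double line. It was low in all Koshihikari libraries (log2 fold change 4.03, standard error 0.35, adjusted p = 1.10e-04), and the single lines were at 0.22 ± 0.149 cpm in NIL-Prl5ST-1 and 3.28 ± 0.966 cpm in NIL-Pbl6ST-1 (SD, n = 3). A set of 8 transcripts on chromosomes 1, 2, 4 and 11 stood apart from these: they had at most 3 counts in each library of the double line and of both single lines. Among them, Os04t0590366-00 (hypothetical conserved gene), was at 3.1, 6.99 and 12.4 cpm in Koshihikari and 0, 0 and 0 cpm in the double line, at least 53.9-fold lower. Os01t0523800-00 was at 2.88, 5.89 and 10.2 cpm in Koshihikari and 0, 0 and 0 cpm in the double line, and Os11t0205200-00 at 1.79, 3.88 and 7.11 cpm in Koshihikari and 0, 0 and 0 cpm in the double line. In these the Koshihikari libraries differed among themselves in the same order, with replicate 3 the highest and replicate 1 the lowest, and whether the 8 share sequence or reads was not tested.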

How the data were processed

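RNA was taken from young panicles of 4 lines, the recurrent parent, both lines with a single segment and the double line, with 3 libraries each, and groups were set from the sample titles and genotype labels. The authors deposited a table of raw read counts for each transcript of the Rice Annotation Project. Their processing notes name bcl2fastq, Bowtie and the rice build IRGSP 1.0; the counting tool, the use of strand and how reads shared by several transcripts were assigned are not given in the sources used here, so transcripts of a locus, close paralogs and overlapping antisense transcripts may share reads. Totals per library were 18851311 to 26873997 in the 6 libraries compared, where 3 counts correspond to 0.125 to 0.159 cpm, and intervals for single low counts cover counting error only.

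The counts were filtered with filterByExpr over all 12 libraries (minimum count 10, minimum total 15, smallest group 3), scaled by TMM and tested on the 6 libraries with the quasi-likelihood test of edgeR 4.0.16 in R 4.3.3, with Benjamini-Hochberg adjustment over 31643 transcripts and a threshold of 0.05. The single-line comparisons used the same steps. Chromosomes were read from the transcript identifiers. Other settings were DESeq2 1.42.0 and its size factors, edgeR's exact test, other count filters, all 12 libraries in 1 fit, a replicate block, counts summed to loci, a 1.5-fold minimum and leaving out each library. In simulated counts for this comparison over 31643 transcripts, 40% of the transcripts changed 1.5-fold were recovered, 92% of those changed 2-fold and 100% of those changed 4-fold or 8-fold, with 13 false among 179 calls. The changed transcripts were drawn only from those with a mean count of at least 50, so recovery at lower counts was not measured.

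Named transcripts were the 12 with the largest change in each direction (mean count of at least 50 in the higher line, no overlap, 1 per locus), the 3 with the largest change by the same conditions in each list with at least 3 calls, and genes that the study names; values are given for those described. Others were named after their values were seen. The members and lists were chosen with earlier results of these data known. In addition, the search words of 7 of the 47 lists were narrowed after values were seen, because they caught unrelated proteins (cyclins, squamosa promoter-binding, GRAS, cytochrome P450, starch, F-box and RING, and NB-ARC proteins), and 8 lists were added then. The added lists were those of dormancy and senescence, branched-chain amino acid and fatty acid breakdown, early nodulins, Bowman-Birk inhibitors, ureide and purine breakdown, superoxide dismutases, flavin monooxygenases and mixed-linked glucan synthases. Their members were chosen from values already seen, so their shares are descriptions only. Searches of promoters for motifs were not carried out here.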

Additional observations from a re-analysis of the deposited data

How the results depend on the processing

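The number of called transcripts, 685 (273 higher and 412 lower), ranged from 270 to 837 when 1 library was left out, with 96 to 382 higher and 168 to 455 lower. The share of calls that were higher was 39.9% and fell to 26.7% without Koshihikari replicate 1. DESeq2 called 961, of which 412 were higher. EdgeR's exact test called 1327 (569 higher and 758 lower), and the fit of all 12 libraries called 1066 (484 higher). Same-numbered libraries of the lines did not deviate together in each pair (correlations -0.22, 0.20 and 0.57 for numbers 1, 2 and 3), so the numbers were not taken to pair the libraries; the replicate block called 1292 (533 higher and 759 lower), including all 685. DESeq2's size factors, both other count filters, counting by locus and a 1.5-fold minimum gave between 514 and 926 calls. Over the 142 named transcripts, 213 of 852 values missed the threshold when 1 library was left out, and 34 of 1249 did so in the other settings. No value changed direction in any setting. Most of these transcripts were chosen because they were called and the lines did not overlap, so their direction could hardly change and this is no test of it. Depth limits statements on transcripts near the floor of 3 counts, and a recovery of 40% for 1.5-fold changes in the simulation means that many moderate changes would be missed.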
